A study of Mus musculus with 9 samples.

Results

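Solute carriers are membrane proteins that move amino acids, sugars, ions, metals, nucleobases, lipids and vitamins across the plasma membrane or the membranes of organelles. The genes described here are the protein-coding genes of the table whose name starts with Slc and a number, leaving out *Slc2a1* and the mitochondrial carriers named Slc25a. This rule took 51 of the 8329 genes in the table, of which 3477 are protein-coding, and it used names and not measured values. Other members of the family were not analysed here, so the substrate classes below hold only some of their known carriers. RNA of sorted stromal cells from wild-type C57BL/6J mice was sequenced in 3 groups of 3 libraries. Mesenchymal stem cells of the bone marrow (BM-MSCs) and skeletal stem cells of the periosteum (P-SSCs) came from mice at steady state, labelled day 0. Graft P-SSCs came from the periosteum of a femur taken 3 days after it had been implanted under the skin of the back of a recipient mouse. The labels name no marker of donor cells, so donor and recipient cells in these libraries cannot be told apart. Mice were 6 to 12 weeks old unless the methods state otherwise. The study's methods sort these cells as negative for CD45, Ter119 and CD31 and positive for CD51 and CD200, and combine RNA of different mice in some replicates. The labels of replicate 2 of the BM-MSCs and of the P-SSCs each join different numbers, but they do not state that these are such pools. The labels name no deletion and no agent in any group.

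Solute carriers work by binding their substrate and changing shape, either along the gradient of that substrate or coupled to sodium, protons or another solute. Some need a partner: the heavy chain encoded by *Slc3a2* brings amino acid carriers of the Slc7 family to the cell surface. In bone, carriers of iron, phosphate, amino acids and protons serve both the mineral and the marrow, where macrophages use the iron exporter encoded by *Slc40a1* to return the iron of old red cells to the blood.

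The level of each gene was deposited as FPKM, a fragment number divided by the length of the gene and by the total of the library. Library totals recovered from the smallest steps of the values ranged from 16890241 to 21315438 fragments, so that 1 fragment on a gene of 1 kilobase is worth 0.0469 to 0.0592 FPKM. Libraries of the same group correlated over the 1948 genes tested with r from 0.858 to 0.992 on the log2 scale. P-SSC replicate 3 stood apart, with r of 0.870 and 0.858 against the other P-SSC libraries, which correlated with each other at 0.9598. Of 10 stromal markers looked for, only *Postn* is in the table, and it was high in each library, from 90.6 FPKM in a BM-MSC library to 879 FPKM in a graft library. Of 14 leukocyte markers 5 are in the table, and their summed level was 441 to 610 FPKM in BM-MSCs, 14.5 to 72.3 FPKM in P-SSCs and 33.4 to 93.5 FPKM in graft P-SSCs. The common leukocyte antigen gene *Ptprc*, against which the cells were sorted, reached 1.35 FPKM at most. Of 10 red cell markers 2 are in the table, with sums of 618 to 2202 FPKM in BM-MSCs, 2.13 to 20.2 FPKM in P-SSCs and 0.809 to 3.68 FPKM in graft P-SSCs. Of 7 muscle markers 2 are in the table, with sums of 0.0553 to 3.48 FPKM in BM-MSCs, 1.77 to 6.51 FPKM in P-SSCs and 0.00249 to 0.408 FPKM in graft P-SSCs. The muscle gene *Myl1* was called lower in the graft than in P-SSCs (log2 difference -1.79, adjusted p = 0.0306, limma), as 11.5% of all genes tested were. *Slc6a2*, *Slc43a3* and *Slc41a3* were called lower in this comparison too. Between P-SSCs and BM-MSCs *Myl1* was not called (log2 difference 0.89, adjusted p = 0.295, limma), while *Slc6a2* and *Slc43a3* were called higher in P-SSCs. No endothelial, adipocyte or osteoblast marker of the lists is among the genes analysed. The part of these other cells in the differences below was not tested, and in RNA of sorted populations fewer cells of a type and less RNA per cell cannot be told apart.

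Of the 51 carriers, 24 reached 1 FPKM in at least 3 of the 9 libraries and were tested, or 47.1%, against 51.5% of the protein-coding genes. A further 19 were above 0 in at least 1 library but below this filter, and their highest value was 3.00 FPKM. The remaining 8 were listed at 0 in each library: *Slc10a5*, *Slc13a2*, *Slc17a1*, *Slc18a3*, *Slc22a13*, *Slc26a5*, *Slc35f4* and *Slc39a5*. The trace metal carriers had the most members tested, 5 of 7, followed by the sugar carriers with 4 of 6. No carrier of mono-, di- and tricarboxylates or of organic ions passed the filter, out of 1 and 2 members. Within the 24 carriers tested, 11 (45.8%) were called in at least 1 comparison and 13 in none, and 56.1% of all genes tested were called in at least 1.

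**Figure D1:**
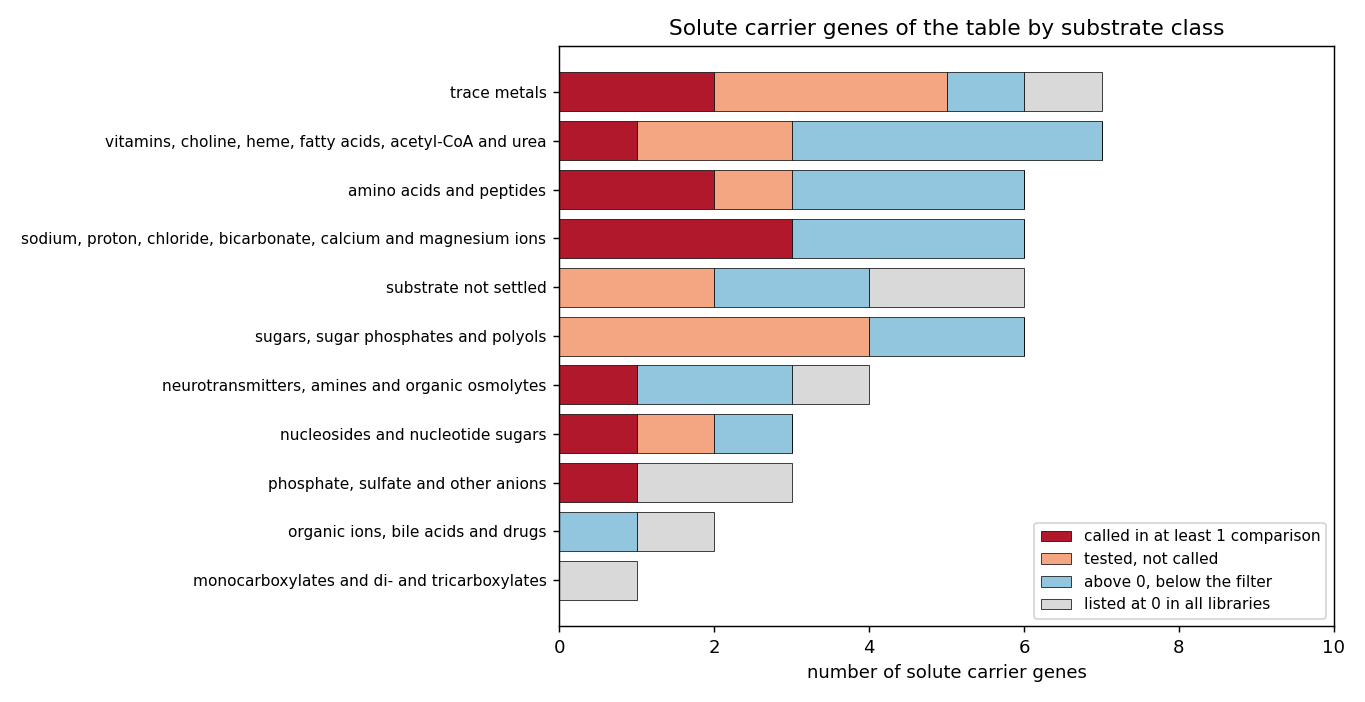
Number of solute carrier genes in the table (x axis) by substrate class (y axis). Bars are divided into genes called in at least 1 of the 3 comparisons, genes tested and not called, genes above 0 but below the filter, and genes listed at 0 in all 9 libraries. All 3 tested carriers of sodium, protons and magnesium were called, and none of the 4 tested sugar carriers was, beside 56.1% of all genes tested.

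Steady-state P-SSCs and BM-MSCs were compared to find what sets the periosteal cells apart before injury. The carriers that differed most were lower in P-SSCs: the anion transporter gene *Slc26a7*, which was almost absent, and *Slc40a1*, which encodes ferroportin, the exporter of cellular iron. The nucleobase transporter gene *Slc43a3* and the noradrenaline transporter gene *Slc6a2* were higher. Calls rest on limma with log2(FPKM + 1), at a threshold of 0.05 after Benjamini-Hochberg adjustment over all 1948 genes, and p-values measure only the spread between these libraries. Of the 24 carriers 2 were called higher (8.33%, against 9.8% of all genes tested) and 3 lower (12.5%, against 14.4%), and 8 had an unadjusted p under 0.05. The median log2 difference of the carriers was -0.22, and that of all genes tested was -0.06.

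Graft and steady-state P-SSCs were compared to follow the early response to transplantation. The magnesium transporter gene *Slc41a2*, the copper importer gene *Slc31a1*, the amino acid carrier subunit *Slc3a2* and the sodium/proton exchanger gene *Slc9b2* were higher in the graft, and *Slc6a2*, *Slc43a3* and *Slc41a3* were lower. Of the 24 carriers 4 were called higher (16.7%, against 22.6% of all genes tested) and 3 lower (12.5%, against 11.5%), and 9 had an unadjusted p under 0.05. Scaling of the libraries by the median of ratios turned these counts into 3 higher and 4 lower, and quantile normalization into 5 and 5. Among all genes tested the calls were 441 higher and 224 lower as deposited, 312 and 302 after the median of ratios and 312 and 355 after quantile normalization. The median log2 difference was 0.33 for the carriers and 0.26 for all genes, and the median of ratios moved the latter to 0.02. Relative to the median of all genes as deposited, the log2 differences were 2.53 for *Slc41a2*, 1.49 for *Slc9b2*, 1.44 for *Slc31a1* and 0.61 for *Slc3a2*. On the same scale they were -2.64 for *Slc6a2*, -2.25 for *Slc43a3* and -1.40 for *Slc41a3*.

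Graft P-SSCs were also compared with BM-MSCs. These comparisons share libraries with those above, so they are set side by side and not counted as separate evidence. In the graft 6 of the 24 carriers were called higher than in BM-MSCs (25.0%, against 25.7% of all genes tested) and 4 lower (16.7%, against 16.2%), and 11 had an unadjusted p under 0.05. The counts were 5 and 5 after the median of ratios and 6 and 5 after quantile normalization. Among all genes tested they were 501 higher and 315 lower as deposited, and 388 and 364 or 387 and 405 after these scalings. The median log2 difference was 0.21 for the carriers and 0.28 for all genes, and the median of ratios moved the latter to 0.08. Relative to the median of all genes as deposited, the carriers called higher were between 0.40 (*Slc3a2*) and 2.13 (*Slc9b2*), and those called lower between -6.99 (*Slc26a7*) and -1.06 (*Slc41a3*). In each of the 3 comparisons the shares of carriers called were thus near those of all genes tested.

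**Figure D2:**
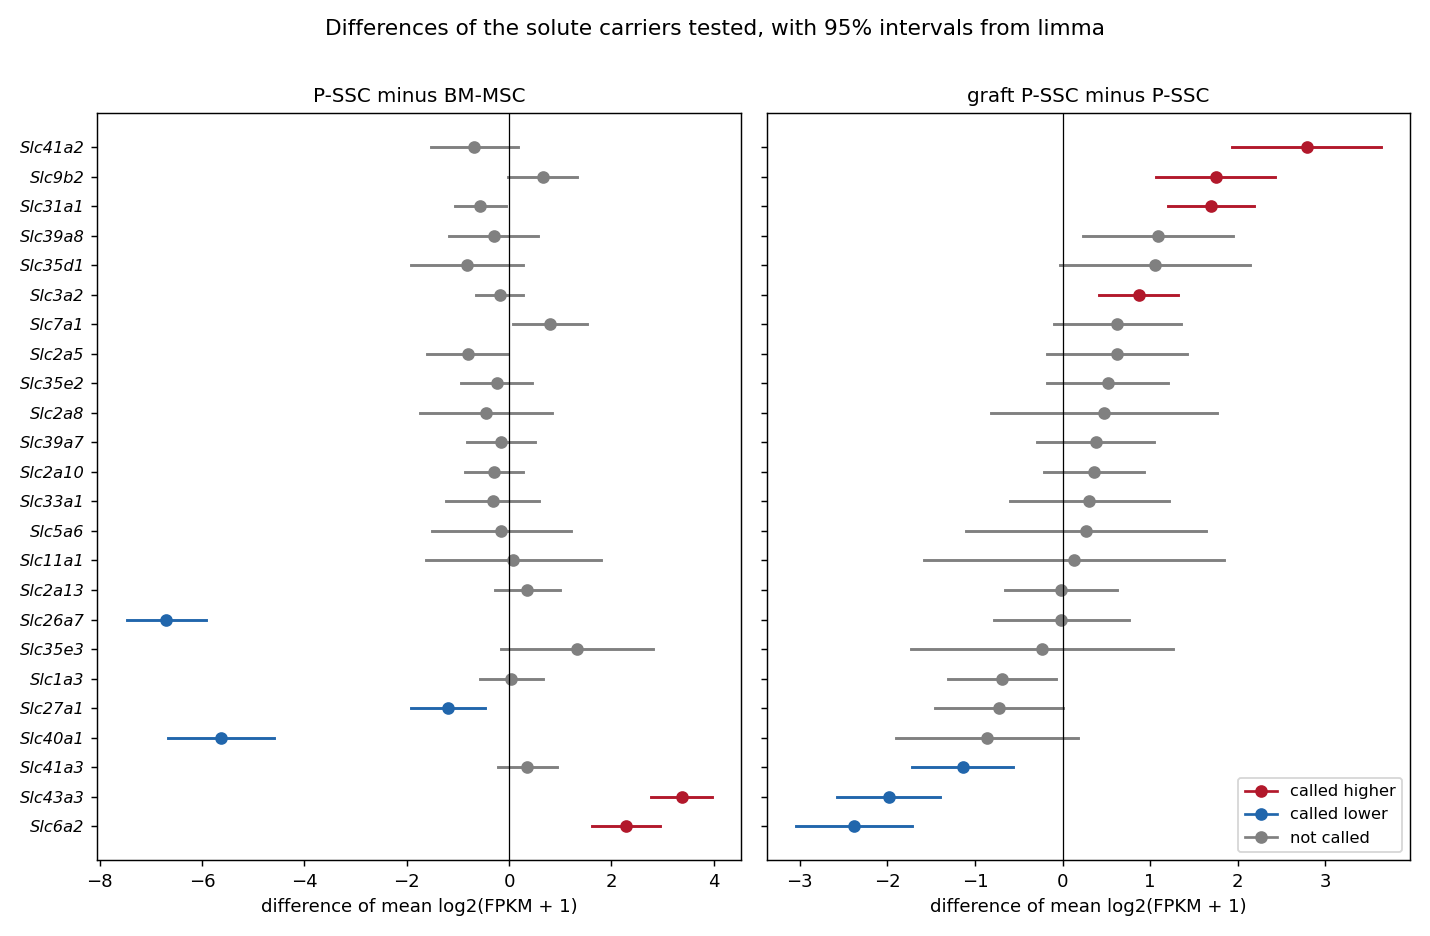
Difference of mean log2(FPKM + 1) (x axis) for the 24 solute carriers tested (y axis, ordered by the graft comparison), with 95% intervals from limma. The left panel shows P-SSCs minus BM-MSCs and the right panel graft P-SSCs minus P-SSCs (the x axes have different ranges). *Slc26a7* and *Slc40a1* lie furthest below 0 on the left, and *Slc41a2* lies furthest above 0 on the right.

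*Slc26a7*, on chromosome 4 from 14502430 to 14621805 of GRCm38, encodes a chloride, bicarbonate and iodide transporter known from stomach, kidney and thyroid epithelia. It had 149.9, 63.5 and 118 FPKM in the BM-MSC libraries, 0, 0 and 0.0304 FPKM in the P-SSC libraries and 0 FPKM in each graft library. Every BM-MSC library was thus far above every periosteal library, and no libraries of these groups overlapped. In recovered fragments the BM-MSC libraries held 10179, the P-SSC libraries 1 and the graft libraries 0. The ratio of BM-MSCs to P-SSCs was 10663, with an exact 95% interval for counting error of 1913 to 421194, and the gene was at least 3582-fold lower in the graft, counting 3 fragments over the group. On the log2(FPKM + 1) scale it fell by 6.70 in P-SSCs (standard error 0.34, adjusted p = 1.51e-06, limma). It was the only one of the 3 carriers of phosphate, sulfate and other anions that was not listed at 0 throughout.

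Trace metal carriers held the next largest difference between P-SSCs and BM-MSCs on the log2(FPKM + 1) scale. *Slc40a1*, on chromosome 1 from 45908068 to 45926523, had 413, 152 and 108 FPKM in BM-MSCs, 3.25, 2.09 and 3.34 FPKM in P-SSCs and 1.83, 0.839 and 0.811 FPKM in the graft. BM-MSC replicate 1 was the highest and the groups of marrow and periosteum did not overlap. The mean of BM-MSCs was 77.5-fold that of P-SSCs (log2 difference -5.63, standard error 0.46, adjusted p = 1.95e-05, limma) and 193-fold that of the graft (log2 difference -6.49, adjusted p = 5.91e-06, limma). Without BM-MSC replicate 1 the ratios of means were 44.8 and 112, and the log2 differences -5.07 for P-SSCs and -5.93 for the graft. Graft and steady-state P-SSCs did not overlap either, but their log2 difference of -0.87 was not called (adjusted p = 0.182, limma).

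Of 15 iron and zinc genes listed beside these carriers 5 are in the table, and 2 were called lower in P-SSCs than in BM-MSCs (beside 14.4% of all genes tested) and 1 higher in the graft than in P-SSCs (beside 22.6%). Between the graft and BM-MSCs 1 was called higher and 2 lower, beside 25.7% and 16.2%. *Heph*, which encodes the ferroxidase hephaestin that works with ferroportin, had 44.7, 12.9 and 30.5 FPKM in BM-MSCs, 2.72, 3.07 and 3.78 FPKM in P-SSCs and 1.22, 1.46 and 2.09 FPKM in the graft. It fell by 2.70 on the log2 scale in P-SSCs (adjusted p = 0.0012, limma), and *Trf*, the gene of the iron carrier transferrin, fell by 5.20. *Hmox1*, which encodes the heme-degrading enzyme that frees iron, had 49.8, 54.5 and 41.4 FPKM in P-SSCs and 211, 199.8 and 249 FPKM in the graft (log2 difference 2.16, limma). The ferritin light chain gene *Ftl1* and the iron sensor gene *Ireb2* were called in no comparison. Leukocyte markers differed within BM-MSCs too. In replicates 1, 2 and 3 *Csf1r* had 2.68, 0.223 and 0 FPKM, the macrophage gene *Adgre1* 3.17, 2.72 and 0.0342 FPKM and the myeloid gene *Mpo* 292, 0 and 0 FPKM. These markers were highest in replicate 1, as *Slc40a1* was. The lysozyme gene *Lyz2*, with 143, 540 and 608 FPKM, and *Ptprc*, with 0.326, 1.35 and 1.19 FPKM, were lowest there. The red cell gene *Hba-a2* had 748, 618 and 2200.5 FPKM in these replicates, and was highest in replicate 3, where *Slc40a1* was lowest. The part of leukocytes and of red cells in the level of *Slc40a1* was not tested.

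**Figure D3:**
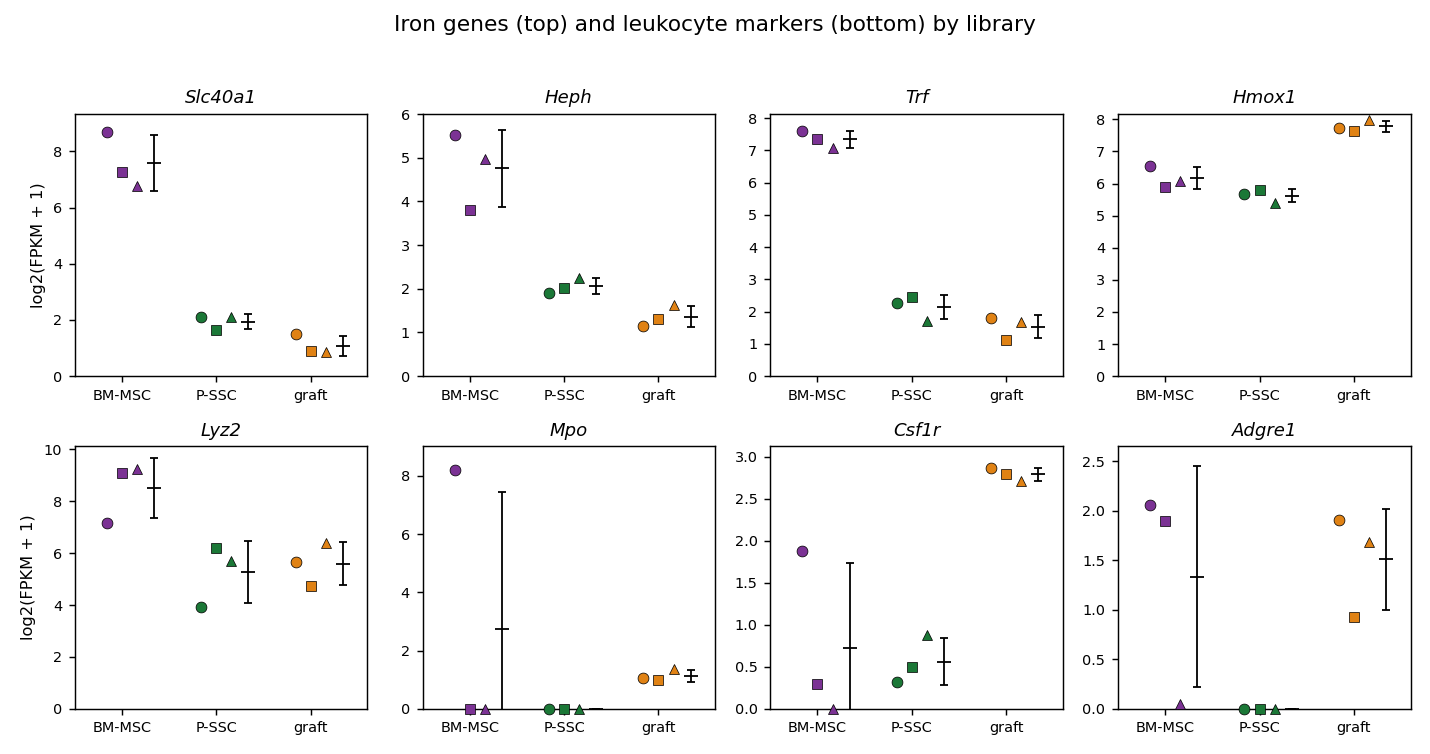
Level as log2(FPKM + 1) (y axes) of *Slc40a1* and the iron genes *Heph*, *Trf* and *Hmox1* (top) and of the leukocyte markers *Lyz2*, *Mpo*, *Csf1r* and *Adgre1* (bottom) in BM-MSC, P-SSC and graft P-SSC libraries (x axes). Circles, squares and triangles are replicates 1, 2 and 3, and bars are means and SD (n = 3). *Slc40a1*, *Heph* and *Trf* are high in the marrow only, and *Hmox1* and *Csf1r* are highest in the graft.

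*Slc31a1*, on chromosome 4 from 62360727 to 62391769, encodes the high-affinity copper importer. It had 11.4, 10.4 and 13.8 FPKM in BM-MSCs, 9.04, 6.74 and 7.49 FPKM in P-SSCs and 27.7, 26.1 and 27.97 FPKM in the graft. The graft libraries were close to each other and all above the other 6. The graft was 3.52-fold above P-SSCs (log2 difference 1.70, standard error 0.22, adjusted p = 0.000367, limma) and 2.29-fold above BM-MSCs (adjusted p = 0.00284, limma). The zinc and manganese importer gene *Slc39a8*, chosen after its values were seen, had 0.0298, 0 and 1.56 FPKM in P-SSCs and 2.23, 1.86 and 1.75 FPKM in the graft. Its log2 difference of 1.09 just missed the threshold (adjusted p = 0.0529, limma) and without P-SSC replicate 3, its highest P-SSC library, it was 1.53 (adjusted p = 0.00159, limma). *Slc11a1*, the metal carrier of phagosomes in macrophages, ranged from 1.07 to 12.7 FPKM in BM-MSCs, 1.32 to 10.3 FPKM in P-SSCs and 2.30 to 7.51 FPKM in the graft, with overlap between all groups. The zinc carrier gene *Slc39a7* was called in no comparison, and its exons overlap those of a neighbouring gene on the same strand. *Slc30a1*, which exports zinc, stayed at 1.48 FPKM or less and was not tested.

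Of the 3 tested carriers of sodium, protons and magnesium, 2 were called higher in the graft than in P-SSCs and 1 lower, beside 22.6% and 11.5% of all genes tested. *Slc41a2*, on chromosome 10 from 83230848 to 83337882, encodes a magnesium transporter. It had 12.1, 7.65 and 13.6 FPKM in BM-MSCs, 10.7, 3.06 and 7.50 FPKM in P-SSCs and 52.1, 52.2 and 45.9 FPKM in the graft. Each graft library was above each other library, and BM-MSC and P-SSC libraries overlapped. The graft mean was 7.07-fold that of P-SSCs (log2 difference 2.79, standard error 0.38, adjusted p = 0.000499, limma) and 4.51-fold that of BM-MSCs (adjusted p = 0.00191, limma). *Slc41a3*, a magnesium transporter gene of the same family on chromosome 6 from 90604725 to 90646412, moved the other way. It had 29.2, 28.7 and 22.2 FPKM in P-SSCs and 11.4, 12.3 and 10.7 FPKM in the graft, without overlap. It fell by 1.14 on the log2 scale (adjusted p = 0.00764, limma), and by 0.78 against BM-MSCs, which had 21.6, 27.3 and 14.6 FPKM (adjusted p = 0.0341, limma). That last call was lost without BM-MSC replicate 1 or 2 or any single graft library, with adjusted p-values of up to 0.107.

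*Slc9b2*, on chromosome 3 from 135307700 to 135345387 and chosen after its values were seen, encodes a sodium/proton exchanger known from osteoclasts. It had 0, 0.0587 and 0 FPKM in BM-MSCs, 0.922, 0 and 1.16 FPKM in P-SSCs and 4.09, 4.56 and 4.55 FPKM in the graft. The graft libraries were above all others. In recovered fragments the graft held 455, P-SSCs 73 and BM-MSCs 2, a ratio of graft to P-SSCs of 6.18 with an exact 95% interval for counting error of 4.82 to 8.03. The log2(FPKM + 1) difference, which understates changes of low genes, was 1.75 against P-SSCs (standard error 0.30, adjusted p = 0.00188, limma) and 2.40 against BM-MSCs (adjusted p = 0.000213, limma). Among the leukocyte markers *Csf1r*, the receptor gene that osteoclasts and macrophages need, rose with it, from 0.248, 0.407 and 0.835 FPKM in P-SSCs to 6.31, 5.93 and 5.57 FPKM in the graft, and *Adgre1* went from 0 in each P-SSC library to 2.75, 0.907 and 2.22 FPKM. *Ptprc* was at 0 in each P-SSC library and at 0.113 to 0.311 FPKM in the graft. *Lyz2*, the most abundant of these markers in both groups, overlapped between P-SSCs (14.2, 71.9 and 51.4 FPKM) and the graft (49.4, 25.5 and 83.98 FPKM), with a log2 difference of 0.32 (adjusted p = 0.759, limma). It was called lower in the graft than in BM-MSCs (-2.90), where *Slc9b2* was higher. *Mpo* was at 0 in P-SSCs and at 0.975 to 1.59 FPKM in the graft and was not called (adjusted p = 0.659, limma). The part of such cells in the level of *Slc9b2* was not tested.

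**Figure D4:**
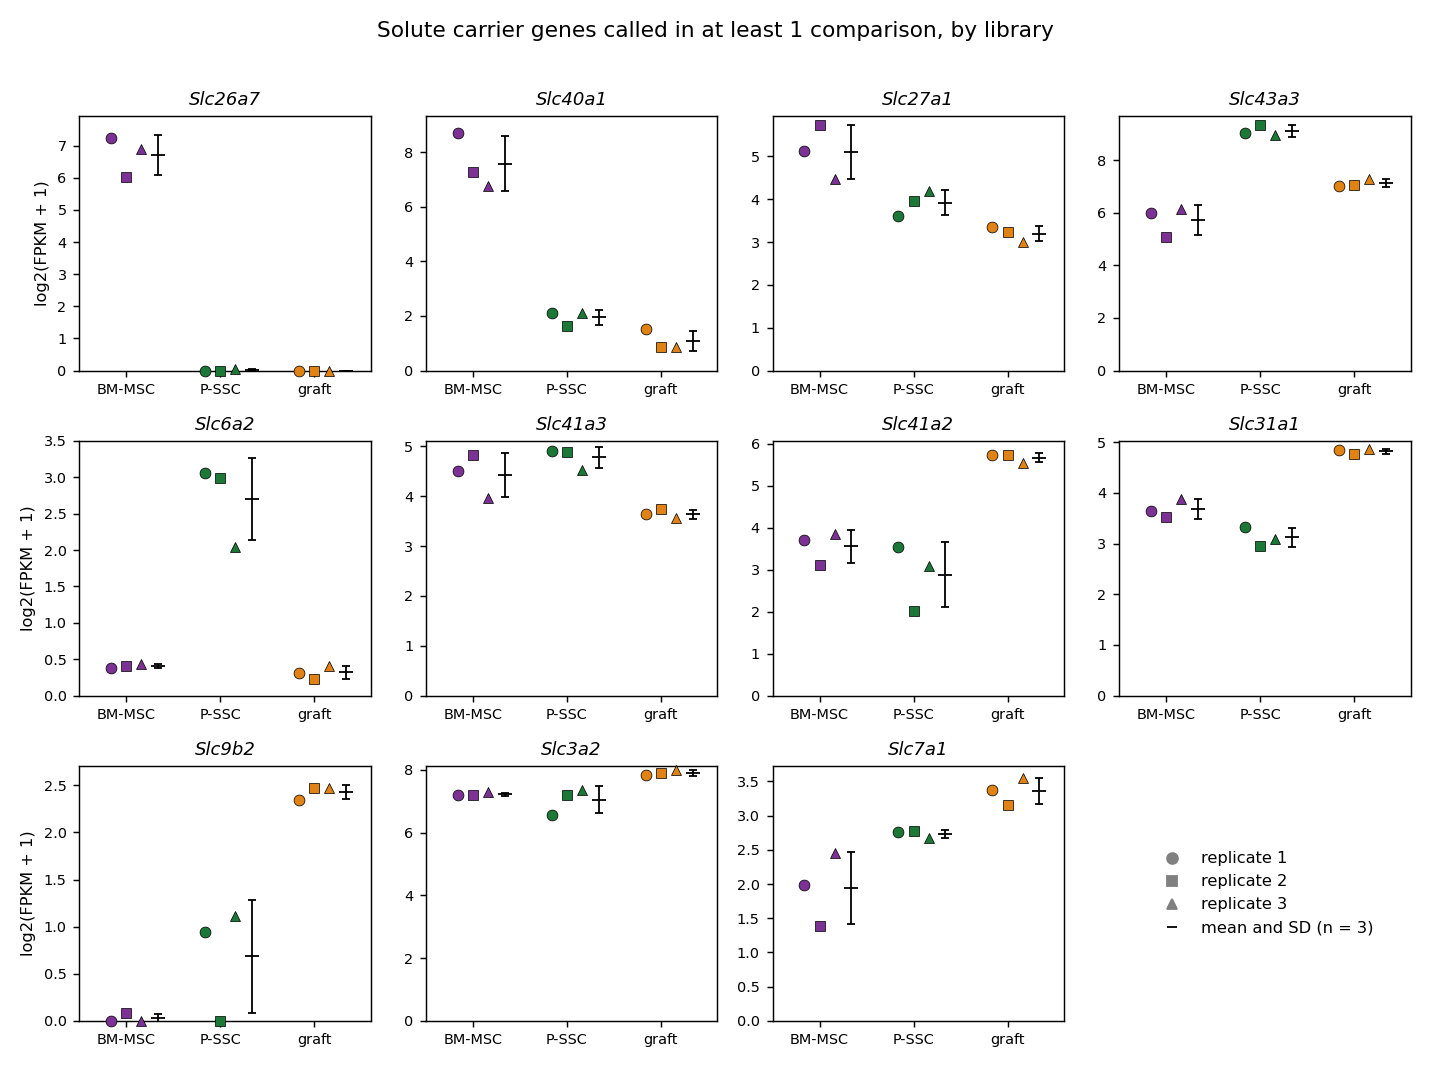
Level as log2(FPKM + 1) (y axes, each with its own range from 0) of the 11 solute carriers called in at least 1 comparison, in BM-MSC, P-SSC and graft P-SSC libraries (x axes). Circles, squares and triangles are replicates 1, 2 and 3, and bars are means and SD (n = 3). *Slc26a7* and *Slc40a1* are high in BM-MSCs, *Slc43a3* and *Slc6a2* in P-SSCs, and *Slc41a2*, *Slc31a1* and *Slc9b2* in the graft.

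*Slc43a3* and *Slc6a2* were called in P-SSCs at steady state as higher than in each other group. *Slc43a3*, on chromosome 2 from 84936579 to 84958509, encodes a transporter of purine nucleobases and had the highest mean of these carriers in steady-state P-SSCs. It had 63.0, 32.9 and 69.1 FPKM in BM-MSCs, 518, 652 and 493 FPKM in P-SSCs and 128, 132 and 156 FPKM in the graft. The groups did not overlap, and the graft lay between the others. P-SSCs were 10.1-fold above BM-MSCs (log2 difference 3.37, standard error 0.26, adjusted p = 1.54e-05, limma). The graft had fallen by 1.99 on the log2 scale against P-SSCs (standard error 0.26, adjusted p = 0.000439, limma) and remained 2.52-fold above BM-MSCs (adjusted p = 0.00275, limma). The nucleotide sugar carrier gene *Slc35d1*, which feeds the synthesis of chondroitin sulfate, had 0.846, 0.0819 and 0.230 FPKM in P-SSCs and 1.64, 1.76 and 2.004 FPKM in the graft. These libraries did not overlap, but its log2 difference of 1.05 was not called (adjusted p = 0.124, limma).

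*Slc6a2*, on chromosome 8 from 92960079 to 93001667, encodes the transporter that sympathetic nerve endings use to take up noradrenaline. It had 0.301, 0.331 and 0.351 FPKM in BM-MSCs, 7.29, 6.94 and 3.13 FPKM in P-SSCs and 0.241, 0.177 and 0.329 FPKM in the graft. Each P-SSC library was above all 6 others, while BM-MSCs and the graft overlapped. P-SSCs were 17.7-fold above BM-MSCs (log2 difference 2.29, standard error 0.30, adjusted p = 0.000319, limma) and 23.2-fold above the graft (log2 difference -2.38 for the graft, adjusted p = 0.00031, limma). P-SSC replicate 3 was the lowest of its group, and without it the log2 differences were 2.61 and -2.70. Graft and BM-MSCs differed by -0.09, with a 95% interval of -0.75 to 0.57. The vesicular monoamine transporter gene *Slc18a2* stayed at 0.197 FPKM or less. The organic cation transporter gene *Slc22a3*, which also carries monoamines, reached 1.29 FPKM at most and was below the filter.

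Of the 3 amino acid carriers tested, *Slc3a2* was called higher in the graft than in P-SSCs (beside 22.6% of all genes), and *Slc3a2* and *Slc7a1* were called higher in the graft than in BM-MSCs (beside 25.7%). *Slc3a2*, on chromosome 19 from 8706882 to 8723369, encodes the CD98 heavy chain, which also binds integrins. It had 146, 146 and 155 FPKM in BM-MSCs, 93.0, 147 and 164 FPKM in P-SSCs and 227, 236 and 257 FPKM in the graft. The 3 graft libraries were the highest, and the other groups overlapped. The log2 difference was 0.87 against P-SSCs (standard error 0.20, adjusted p = 0.00921, limma) and 0.68 against BM-MSCs (adjusted p = 0.0235, limma). Relative to the median of all genes these were 0.61 and 0.40, and after the median of ratios neither was called, with adjusted p-values of 0.0883 and 0.146. The call against BM-MSCs was also lost without BM-MSC replicate 1 or 2, without any single graft library and without the trend of the variance.

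*Slc7a1*, on chromosome 5 from 148327410 to 148399904, encodes the cationic amino acid transporter that takes up arginine and lysine. It had 2.95, 1.63 and 4.46 FPKM in BM-MSCs, 5.77, 5.82 and 5.37 FPKM in P-SSCs and 9.35, 7.93 and 10.7 FPKM in the graft. The groups did not overlap, with the graft highest. The graft was 3.10-fold above BM-MSCs (log2 difference 1.42, standard error 0.32, adjusted p = 0.00717, limma), and neither difference from P-SSCs was called (adjusted p = 0.166 for the graft and 0.113 for BM-MSCs, limma). The glutamate transporter gene *Slc1a3* had 19.4, 9.87 and 16.8 FPKM in P-SSCs and 9.35, 8.495 and 8.63 FPKM in the graft. Its log2 difference of -0.69 was not called as deposited (adjusted p = 0.0814, limma), but was called at -0.98 after the median of ratios, at -1.19 after quantile normalization and at -0.96 without P-SSC replicate 2. Against BM-MSCs, with 13.95, 13.1 and 15.97 FPKM, it was not called as deposited either (-0.64) and was called in those 3 settings and in a fit of these groups alone. Of 18 genes of the amino acid response driven by the factor ATF4, 3 are in the table and did not move one way. *Mthfd2*, of mitochondrial folate metabolism, was higher in the graft than in P-SSCs by 2.46 on the log2 scale, and the stress genes *Ddit3* and *Nupr1* fell by 0.94 and 1.92, and each of these differences was called. The same genes were called in the same directions against BM-MSCs, and none was called between P-SSCs and BM-MSCs.

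The windows around the start sites of *Slc41a2*, *Slc31a1*, *Slc3a2* and *Slc9b2* are shown because these 4 carriers were called higher in both comparisons of the graft. They run from 250 bases before to 50 bases after the start in RefSeq (GRCm38.p6). They were searched on both strands for ACGTG, the core of the hypoxia response element, a motif chosen after the values were seen, and capitals mark each match or its reverse complement CACGT. *Slc41a2* is at chr10:83337768-83338067 on the minus strand and has 2 matches, *Slc31a1* at chr4:62360451-62360750 on the plus strand has 1, *Slc3a2* at chr19:8713848-8714147 on the minus strand has 1 and *Slc9b2* at chr3:135307450-135307749 on the plus strand has 0.
Slc41a2: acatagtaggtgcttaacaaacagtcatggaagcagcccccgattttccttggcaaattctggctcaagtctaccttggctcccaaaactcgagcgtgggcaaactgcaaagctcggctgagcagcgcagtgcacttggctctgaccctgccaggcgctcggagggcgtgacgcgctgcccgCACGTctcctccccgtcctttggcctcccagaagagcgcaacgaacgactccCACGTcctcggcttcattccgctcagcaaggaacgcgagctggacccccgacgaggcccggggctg
Slc31a1: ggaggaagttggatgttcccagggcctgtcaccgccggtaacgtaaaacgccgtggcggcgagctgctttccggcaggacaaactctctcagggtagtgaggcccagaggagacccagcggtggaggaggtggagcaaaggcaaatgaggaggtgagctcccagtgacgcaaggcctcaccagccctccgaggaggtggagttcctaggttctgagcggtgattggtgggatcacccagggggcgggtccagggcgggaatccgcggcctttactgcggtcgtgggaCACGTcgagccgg
Slc3a2: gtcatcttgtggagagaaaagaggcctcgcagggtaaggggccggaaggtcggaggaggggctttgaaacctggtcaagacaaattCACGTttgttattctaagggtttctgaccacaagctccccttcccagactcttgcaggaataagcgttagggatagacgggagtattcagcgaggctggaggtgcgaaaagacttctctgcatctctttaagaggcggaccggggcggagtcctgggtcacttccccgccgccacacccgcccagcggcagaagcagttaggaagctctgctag
Slc9b2: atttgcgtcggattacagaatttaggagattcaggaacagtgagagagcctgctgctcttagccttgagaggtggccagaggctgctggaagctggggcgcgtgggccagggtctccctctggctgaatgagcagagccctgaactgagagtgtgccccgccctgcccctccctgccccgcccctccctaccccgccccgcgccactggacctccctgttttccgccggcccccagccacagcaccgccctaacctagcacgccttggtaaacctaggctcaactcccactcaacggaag
The motif was in 10 of the 24 windows of the 19 tested carriers that have one, and in 19.6% of all 32851 windows. These sets are unlike, because the carriers passed a filter on their level and the set of all windows was not filtered. The share among all genes tested was not computed, so no excess can be read from these values. The carriers with the motif include genes that were lower in the graft, such as *Slc41a3*, and genes called in no comparison, such as *Slc2a10*. The windows of *Slc7a1*, called higher in the graft than in BM-MSCs, do not hold these letters. The composite element of ATF4, TGATGNAAN, is in 3.95% of all windows and in none of those of the tested carriers, *Slc3a2* and *Slc7a1* included. *Slc26a7*, *Slc35e2*, *Slc40a1*, *Slc43a3* and *Slc6a2* were not matched to a window.

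Among carriers of fatty acids, vitamins and acetyl-CoA, *Slc27a1*, on chromosome 8 from 71568882 to 71587302, encodes a long-chain fatty acid transporter. It had 33.9, 51.9 and 21.1 FPKM in BM-MSCs, 11.1, 14.5 and 17.2 FPKM in P-SSCs and 9.16, 8.39 and 7.03 FPKM in the graft. The groups did not overlap, with BM-MSCs highest. The mean of BM-MSCs was 2.49-fold that of P-SSCs (log2 difference -1.19 for P-SSCs, standard error 0.33, adjusted p = 0.0239, limma) and 4.35-fold that of the graft (log2 difference -1.91, adjusted p = 0.00139, limma). The call in P-SSCs was lost without BM-MSC replicate 1 or 2, without P-SSC replicate 1 and in a fit of these groups alone, with adjusted p-values of up to 0.0789. *Slc5a6*, the multivitamin transporter gene, ranged from 0.928 to 9.47 FPKM and *Slc33a1*, the acetyl-CoA transporter gene, from 1.56 to 6.43 FPKM, and neither was called. The exons of both overlap a gene on the opposite strand, and whether the counting used strand is not given in the sources used here.

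None of the 4 sugar carriers tested was called in any comparison. *Slc2a10*, which encodes the facilitative transporter GLUT10, had 49.8, 44.4 and 31.3 FPKM in BM-MSCs, 30.7, 26.1 and 46.3 FPKM in P-SSCs and 45.8, 38.996 and 44.6 FPKM in the graft. The groups overlapped, and the log2 difference of P-SSCs from BM-MSCs was -0.29 with a 95% interval of -0.86 to 0.27. *Slc2a8*, which encodes the intracellular transporter GLUT8, depended on 1 library: it had 8.01, 9.39 and 49.6 FPKM in P-SSCs, 32.3, 19.7 and 16.3 FPKM in BM-MSCs and 23.1, 21.8 and 21.9 FPKM in the graft. P-SSC replicate 3 was the highest of all 9 libraries and the other P-SSC libraries were the lowest. Without it *Slc2a8* was called lower in P-SSCs than in BM-MSCs (log2 difference -1.24, adjusted p = 0.00794, limma) and higher in the graft than in P-SSCs (1.27, adjusted p = 0.00458, limma). The inositol transporter gene *Slc2a13* stayed at 1.52 FPKM or less, and the fructose transporter gene *Slc2a5* was at 0 in each P-SSC library and at 1.38 FPKM or less elsewhere.

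The same library held the highest level of *Slc35e3*, whose substrate is not settled, with 18.01 FPKM against 1.58 and 2.36 FPKM in the other P-SSC libraries, 0.871 to 1.40 FPKM in BM-MSCs and 2.17 to 5.20 FPKM in the graft. *Slc35e2*, also without a settled substrate and overlapped by a gene on the opposite strand, ranged from 0.292 to 1.67 FPKM and was called in no comparison. *Emb*, which encodes a partner of lactate carriers and is no solute carrier itself, had a log2 difference of -2.003 in P-SSCs against BM-MSCs and of 1.56 in the graft against P-SSCs (adjusted p = 0.0013 and 0.00479, limma). Without P-SSC replicate 3, 2 solute carriers were called higher and 4 lower in P-SSCs than in BM-MSCs, beside 10.8% and 19.7% of all genes tested. In the graft against P-SSCs 6 were called higher and 3 lower, beside 32.7% and 13.1% of all genes, and against BM-MSCs 8 and 4, beside 34.2% and 19%. The counts over all genes thus rose without this library as well.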

How the data were processed

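RNA was sequenced from 9 libraries in 3 groups of 3. The authors extracted RNA from sorted cells and aligned the libraries to GRCm38 using STAR 2.6.1d. The submitters' processing notes also name CASAVA, fastp and featureCounts 1.5.0-p3. The deposited FPKM are fragments divided by a gene length and the library total, with no further scaling found. The annotation release and the strand setting are not given in the sources used here. Multiplied by the mean annotated transcript length, 94.6% of 22664 values above 0 were whole fragments within 0.001, and all 1948 genes tested gave whole fragments, 117 of them with a length found by search. Levels of different genes thus depend on their annotated transcripts, and intervals and floors on fragments cover counting error only.

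Genes that reached 1 FPKM in 3 or more libraries entered the test on the log2(FPKM + 1) scale, and all 9 libraries were fitted with limma 3.58.1 in R 4.3.3 (lmFit, contrasts, eBayes with a trend), a procedure tested on simulated data. Genes with an adjusted p under 0.05 were called. The study's own test on counts, DESeq2, was not used on FPKM. Genes named are called members whose higher group averaged 5 FPKM or more, the 2 members of each class with the highest mean and linked carriers such as *Slc11a1*, and other members and list genes given with values were chosen after those were seen. Members and lists were chosen with earlier results of these data known. Alternatives changed the pseudocount, filter, scaling, libraries, replicate block and trend. A fit of recovered fragments with voom was added after seeing the data. One result on a gene outside the solute carriers is not reported here.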

Additional observations from a re-analysis of the deposited data

How the results depend on the processing

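The 22 calls of solute carriers were recomputed in up to 18 other settings. None changed direction, 18 were kept in each setting in which the gene was tested, and 4 were lost in at least 1: *Slc27a1* in P-SSCs against BM-MSCs, *Slc3a2* in both comparisons of the graft, and *Slc41a3* in the graft against BM-MSCs. Leaving out 1 library at a time gave 4 to 8 carriers called in P-SSCs against BM-MSCs, 7 to 9 in graft against steady-state P-SSCs and 8 to 12 in the graft against BM-MSCs, beside 5, 7 and 10 of 24 with all libraries. Of all genes tested 20.5% to 30.4%, 23.1% to 45.8% and 28.5% to 53.3% were called in these fits, beside 24.2%, 34.1% and 41.9% with all libraries. The 8 (33.3%, beside 21.8% of all genes) came without BM-MSC replicate 3, where *Slc2a5* (-1.22), *Slc35d1* (-1.45) and *Slc7a1* (1.05) were also called. In 14 further pairs of a tested gene and a comparison, a call appeared only in another setting, and without the filter on low values 3 pairs of carriers below it were called too (*Slc6a17* in both comparisons of the graft and *Slc9a4* in graft against P-SSCs). In that setting 20.9% of the carriers were called in the graft against P-SSCs, beside 18.4% of all genes. Against BM-MSCs these shares were 25.6% and 21.4%. The difference of *Slc2a8*, not called, ranged from -1.24 (without P-SSC replicate 3) to 0.0057 (without P-SSC replicate 1) in P-SSCs against BM-MSCs when 1 library was left out, beside -0.44 with all, and changed sign to -0.0625 in graft against P-SSCs after quantile normalization. Of the 36 pairs called in no setting, 22 changed sign in at least 1. A pseudocount of 0.1 made the log2 differences of low genes larger, such as 5.27 for *Slc9b2* and -10.02 for *Slc26a7* in the graft against BM-MSCs, and voom on fragments called 5, 9 and 10 carriers, beside 23.3%, 34.3% and 41.2% of all genes. The causes were not tested.

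The replicate numbers did not pair the libraries: deviations from the group means correlated with r of -0.434 to 0.132 in 9 pairs with the same number, and of -0.313 to 0.381 in 18 other pairs. With the replicate block 5, 8 and 10 carriers were called, beside 22.6%, 31.9% and 38.8% of all genes, the added carrier being *Slc39a8* in the graft against P-SSCs (log2 difference 1.09, adjusted p = 0.0453, limma).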

Other observations

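The following carriers were below the filter, were not among the 24 tested and were chosen after their values were seen. The neutral amino acid transporter gene *Slc6a17*, known from synaptic vesicles, had 1.05, 1.0045 and 0.905 FPKM in the graft, 0.281 FPKM in P-SSC replicate 1 and 0 in the other libraries. In a fit without the filter it was called higher in the graft than in P-SSCs (log2 difference 0.87, adjusted p = 0.00131, limma) and than in BM-MSCs (0.99, adjusted p = 0.000503, limma). The sodium/proton exchanger gene *Slc9a4* had 1.05, 0.609 and 0.377 FPKM in the graft, 0.602 FPKM in BM-MSC replicate 1 and 0 in the other libraries, and in that fit it was called higher in the graft than in P-SSCs (0.73, adjusted p = 0.0449, limma). The glutamate transporter gene *Slc1a6* had 2.66 and 3.00 FPKM in BM-MSC replicates 1 and 3 and 0 in replicate 2, with at most 0.395 FPKM in the periosteal libraries. The graft and P-SSC libraries of *Slc9a4* did not overlap, but the BM-MSC libraries overlapped with both groups. For *Slc1a6* the libraries of all groups overlapped. The members nearest to the filter by their value in the third highest library were *Slc36a1* (0.944 FPKM) and *Slc6a17* (0.905 FPKM) below it, and *Slc2a5* (1.21 FPKM) and *Slc35e2* (1.22 FPKM) above it.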
